A study of Mus musculus with 6 samples.

Results

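The genes of pyruvate entry and of the tricarboxylic acid (TCA) cycle were examined in CD8+ T cells of the mouse that had been treated with sphingosine-1-phosphate (S1P) or with vehicle. A list of 30 genes was matched by GENCODE symbol to the 56941 Ensembl identifiers of the count table, and all 30 were found and had enough counts for a test, among 13299 genes tested. Pyruvate carboxylase (Pc) stands in GENCODE under its synonym Pcx. The list was ordered by step, with 10 genes of pyruvate entry, 7 of citrate and isocitrate, 5 of 2-oxoglutarate and succinyl-CoA, 4 of succinate dehydrogenase and 4 of fumarate and malate.

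RNA-seq was available from 3 S1P-treated and 3 vehicle-treated samples, given in the labels as biological replicates. The labels name naive CD8+ T cells of B6 spleens, whereas the study's methods allow either purified naive T cells or total splenocytes as the start of such cultures. Every sample was stimulated over 3 days by plate-bound antibodies against CD3 and CD28 with 100 U/ml IL-2. S1P at 5 µM or vehicle entered the cultures 24 h after stimulation began. The age and sex of the mice behind these samples are not stated in the labels, and no allele or transgene is named.

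Pyruvate made by glycolysis enters the mitochondrion through a carrier built of MPC1 and MPC2. There it is either oxidised to acetyl-CoA by the pyruvate dehydrogenase complex or carboxylated to oxaloacetate by pyruvate carboxylase, the route that refills the cycle. The cycle condenses acetyl-CoA with oxaloacetate to citrate, and its dehydrogenases pass electrons to the respiratory chain. Activated T cells also use it as a source of citrate and aspartate for growth.

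Total counts per sample lay between 12048880 and 17384084. S1P-treated replicate 2 had 7.80% of its counts in mitochondrially encoded genes, where the other 5 samples had 4.10% to 4.93%. Values are given as CPM, a gene's counts relative to the library size after scaling by the TMM method. Genes that mark CD8 T cells were present, with Cd8a between 207 and 251 CPM in vehicle-treated and between 132 and 144 CPM in S1P-treated samples. In a list of 8 genes, made up of Cd8a, Cd8b1 and T cell receptor and CD3 genes that CD4 T cells also express, Cd8a, Cd8b1 and Trbc1 were lower after S1P, and Cd3d and Cd3g were lower by adjusted p alone (0.0129 and 0.0444, edgeR). The list summed to 1560 to 1790 CPM in vehicle-treated and 1340 to 1480 CPM in S1P-treated samples, which did not overlap. Transcripts of other lymphocytes were also present. The 8 B cell genes summed to 599 to 752 CPM in vehicle-treated and 664 to 752 CPM in S1P-treated samples, with Ms4a1 and Cr2 lower and Fcer2a higher. The 4 CD4 T cell genes summed to 229 to 272 and 252 to 319 CPM, with Zbtb7b and Cd40lg higher. Cd4 itself was between 186 and 223 CPM in vehicle-treated and between 195 and 254 CPM in S1P-treated samples. The sums were at most 6.06 CPM for 8 myeloid genes, of which C1qa was at 0 in every sample, at most 4.21 CPM for 5 NK cell genes and at most 1.02 CPM for 4 erythroid genes. The part of these transcripts in the results below was not tested. In bulk samples, fewer cells of a type and less RNA per cell cannot be told apart.

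After S1P, 8 members fell and 2 rose, by modest amounts on the side that fell. Fallen genes were Mpc2, Dlat, Idh3a, Ogdh, Dlst, Sdhb, Sdhd and Mdh2, with changes (log2FC, S1P over vehicle) from -0.44 to -0.33. Pc and Idh1 rose by 1.03 and 0.59 on the log2 scale. To be called, a gene needed a size of log2FC of 0.3 or more together with an adjusted p no larger than 0.05 (quasi-likelihood test of edgeR), thresholds taken from the study. Of all tested genes, 23.1% were called in one direction or the other. The 8 lower members were 26.7% of the list, where 10.4% of all tested genes were called lower. The 2 higher members were 6.67% of it, where 12.7% of all tested genes were called higher. Another 4 members, Sdhc, Fh1, Pdha1 and Me2, were past the adjusted p but under the fold threshold, and 16 were past neither. By adjusted p alone, 10 members were lower, where the share of all genes was 13.8%, and 4 were higher, where it was 14.7%. Without S1P-treated replicate 2, 6 members were lower and 2 higher. The median log2FC was -0.12 over the members and 0.01 over all tested genes, and 21 of the 30 values (70%) were negative, against 48.5% over all genes. Every S1P-treated sample lay below every vehicle-treated sample for 16 members (53.3%), against 22.6% of all tested genes, and above for 5 (16.7%), against 23.0%. Summed over the members, the level was 3281, 3380 and 3327 CPM in vehicle-treated replicates 1 to 3 and 3001, 2937 and 3129 CPM in S1P-treated replicates 1 to 3, so that the groups did not overlap.

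**Figure D1:**
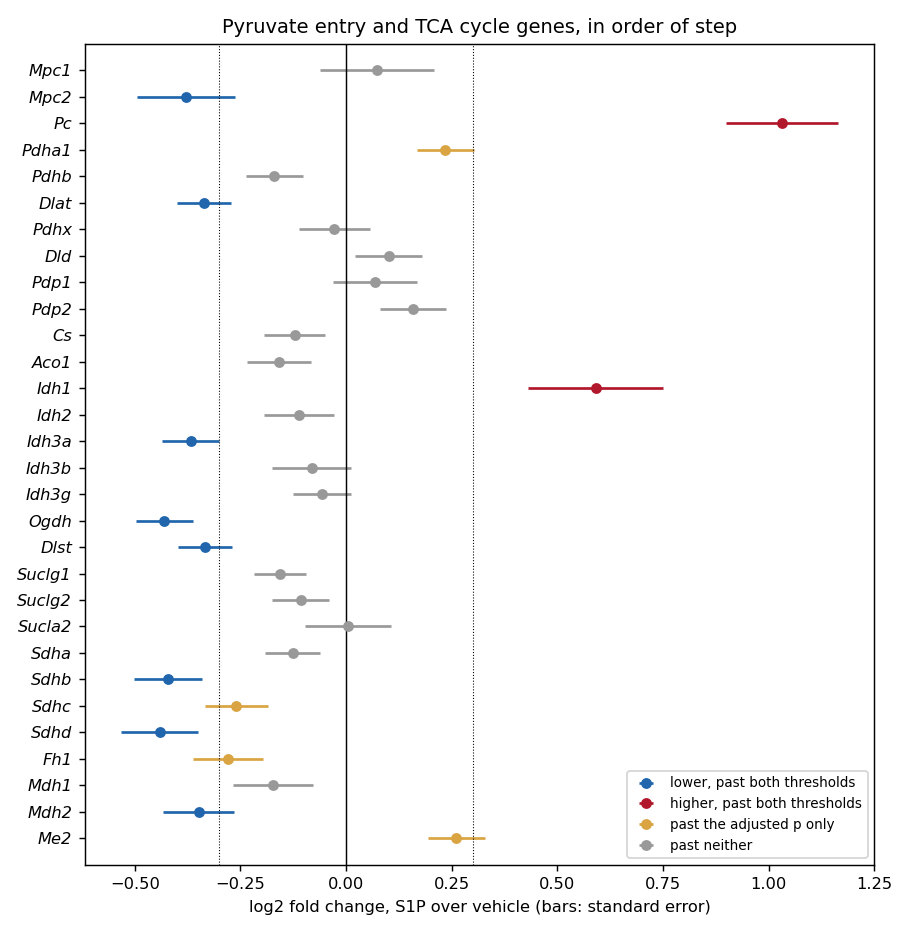
Log2FC of the 30 members, S1P over vehicle, with the SE as bars. Genes are listed by step from pyruvate entry to malate, dotted lines mark a size of 0.3, and colours give the call; Pc and Idh1 lie farthest to the right, and 8 genes lie past the left line.

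Upstream sequence is shown for Dlat, Ogdh, Dlst and Sdhb, members that fell and for which the 250 bases before the canonical start hold no annotated UTR. Annotated exons of other genes, counted on either strand, cover all 250 bases of the Ogdh and Sdhb windows and 130 of those of Dlat. No annotated exon lies in the window of Dlst. Dlat, Ogdh and Dlst encode catalytic components of the related 2-oxoacid dehydrogenase complexes, and Sdhb an electron-carrying subunit of succinate dehydrogenase. In GRCm39 with the GENCODE vM39 start sites, the windows are chr9:50571278-50571527 on the minus strand for Dlat, chr11:6241301-6241550 on the plus strand for Ogdh, chr12:85156777-85157026 on the plus strand for Dlst and chr4:140688252-140688501 on the plus strand for Sdhb. Each is written 5′ to 3′ in the direction of its gene, and capitals mark CCAAT and GGGCGG (the GC box) or their reverse complements.
Dlat: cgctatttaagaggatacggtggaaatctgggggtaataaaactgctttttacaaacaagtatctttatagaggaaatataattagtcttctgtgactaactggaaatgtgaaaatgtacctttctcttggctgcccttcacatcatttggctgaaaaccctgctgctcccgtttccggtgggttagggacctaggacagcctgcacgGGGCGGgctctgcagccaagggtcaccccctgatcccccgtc
Ogdh: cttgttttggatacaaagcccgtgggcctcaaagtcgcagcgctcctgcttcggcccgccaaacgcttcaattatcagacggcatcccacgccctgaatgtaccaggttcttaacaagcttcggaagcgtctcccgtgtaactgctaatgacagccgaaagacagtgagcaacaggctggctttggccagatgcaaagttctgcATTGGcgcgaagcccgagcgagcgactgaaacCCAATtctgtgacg
Dlst: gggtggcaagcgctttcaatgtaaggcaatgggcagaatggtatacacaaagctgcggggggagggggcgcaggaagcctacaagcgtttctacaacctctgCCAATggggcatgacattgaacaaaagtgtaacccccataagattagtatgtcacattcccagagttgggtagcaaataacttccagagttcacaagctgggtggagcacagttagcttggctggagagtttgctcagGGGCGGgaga
Sdhb: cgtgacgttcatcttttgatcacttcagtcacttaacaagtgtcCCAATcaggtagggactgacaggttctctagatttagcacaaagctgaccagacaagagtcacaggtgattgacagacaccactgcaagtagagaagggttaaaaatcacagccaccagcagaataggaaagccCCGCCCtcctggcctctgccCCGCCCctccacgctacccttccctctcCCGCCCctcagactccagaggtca

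The GC box was found in the windows of Dlat, Dlst and Sdhb, with 3 matches in that of Sdhb, and CCAAT in those of Ogdh, Dlst and Sdhb. Both strands of the 250-base window were searched for all 30 members. CCAAT was present in 15 of them (50%) and in 36.5% of 21770 protein-coding genes. The GC box was also present in 15, against 36.3% of those genes and 50.1% of the 11273 among them that were tested. The ETS motif CCGGAAG was found in 3 members, Idh3a, Mdh2 and Sdhd (10%), and in 6.89% of protein-coding and 10.8% of tested genes. The NRF1 motif was found in Sdha and Sdhd (6.67% of members, 6.21% of tested genes). The E-box CACGTG was found in Pc and Pdp2 (6.67%, against 7.99%), and ACGTG, which every CACGTG contains, in 6 members (20%, against 21.7%). The members' windows held no AAGGTCA (ERR half-site), AAGATGG (YY1) or TGATGCAA (C/EBP-ATF element), letters present in 3.16%, 4.31% and 0.461% of the windows of tested genes. Motifs were searched without regard to overlap between them, and a match describes letters, not binding.

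At the entry of pyruvate, the gene of the carboxylating enzyme rose, and 1 gene each of the carrier and of the oxidising complex fell. Pc (ENSMUSG00000024892, chromosome 19 from 4559902 to 4672189) encodes pyruvate carboxylase. Its level was 9.05, 8.80 and 7.97 CPM in vehicle-treated replicates 1 to 3 and 20.5, 15.4 and 16.6 CPM in S1P-treated replicates 1 to 3. All S1P-treated samples were above all vehicle-treated ones, and the mean went from 8.61 ± 0.565 to 17.5 ± 2.71 CPM (SD, n = 3 each), a 2.05-fold rise (log2FC 1.03, SE 0.133, adjusted p by edgeR = 0.000273). The call was kept without each library in turn, with log2FCs from 0.89 to 1.12. In Pc, 8.64% of the exon bases lie under a gene of the opposite strand, whose reads could not be told apart if the counting ignored strand, a setting that is not known here. Among the other called members this share was 22.9% in Idh3a, 12.3% in Mpc2 and at most 5.53% in the rest. It was larger in the uncalled members Mpc1 (35.5%), Idh3g (33.7%), Idh2 (29.4%) and Pdhb (27.8%).

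Mpc2 (ENSMUSG00000026568, chromosome 1 from 165287125 to 165308785), a subunit of the pyruvate carrier, was at 18.9, 22.3 and 21.8 CPM in vehicle-treated and at 16.1, 14.0 and 18.1 CPM in S1P-treated replicates 1 to 3. The groups did not overlap, and the gap between them was small beside their spread. Its log2FC was -0.38 (SE 0.116, adjusted p by edgeR = 0.0296). When each library was left out in turn, 2 of the 6 fits kept the call. It was lost without vehicle-treated replicate 2 (-0.34, adjusted p by edgeR = 0.104) or 3 (-0.35, adjusted p by edgeR = 0.107), and without S1P-treated replicate 1 (-0.38, adjusted p by edgeR = 0.05 after rounding down from a value above the threshold) or 2 (-0.30, adjusted p by edgeR = 0.0529). Of its 31-base stretches, 21.6% also occur in transcripts of other genes. The partner subunit Mpc1 was at 13.0 ± 1.98 and 13.8 ± 1.59 CPM (SD, n = 3 each), with overlapping groups and a log2FC of 0.07 (SE 0.135, adjusted p by edgeR = 0.724). The log2FC of Mpc1 was -0.0195 without S1P-treated replicate 2, -0.0045 without vehicle-treated replicate 3 and 0.21 without vehicle-treated replicate 1. In Mpc1, 39.3% of the 31-base stretches also occur in transcripts of other genes.

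Of the pyruvate dehydrogenase complex, 1 subunit gene fell. Dlat (ENSMUSG00000000168, chromosome 9 from 50543457 to 50571277) encodes E2, the acetyltransferase at the core of the complex. It was at 90.2, 86.9 and 88.9 CPM in vehicle-treated and at 70.6, 68.2 and 72.0 CPM in S1P-treated replicates 1 to 3. The spread within groups was under 2 CPM (SD 1.66 and 1.92, n = 3 each) and the groups were well apart. The log2FC was -0.34 (SE 0.0642, adjusted p by edgeR = 0.00289), a level 20.8% lower.

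Pdha1, the alpha subunit of E1, went the other way, at 166, 165 and 159.8 CPM in vehicle-treated and 188, 205 and 184 CPM in S1P-treated replicates 1 to 3. All S1P-treated samples were higher, with a log2FC of 0.23 (SE 0.0668, adjusted p by edgeR = 0.0217), under the threshold of 0.3. The adjusted p by edgeR was above 0.05 without vehicle-treated replicate 1, 2 or 3 (0.0731, 0.0746 and 0.103), with no filter on low counts (0.0983) and with the GC offset and block (0.0529). The beta subunit of E1, Pdhb, was at 93.7 ± 2.08 and 83.2 ± 4.83 CPM (SD, n = 3 each), with a log2FC of -0.17 (adjusted p by edgeR = 0.0833, and 0.046 with an offset for GC content). In Pdhb, 62.3% of the 31-base stretches also occur in transcripts of other genes. The E3-binding protein Pdhx had a log2FC of -0.03 (SE 0.0833) and the E3 dehydrogenase Dld, which serves several of these complexes, one of 0.10 (SE 0.0797), both with overlapping groups. The log2FC of Dld was 0.0317 without S1P-treated replicate 2, 0.175 without S1P-treated replicate 1 and -0.0276 with an offset for GC content. That of Pdhx was 0.0042 without vehicle-treated replicate 1 and -0.0896 with the GC offset. The phosphatases that activate E1, Pdp1 and Pdp2, had log2FCs of 0.07 and 0.16, with adjusted p values by edgeR of 0.642 and 0.151, and the samples of the groups did not overlap for Pdp2. Without S1P-treated replicate 1 the log2FC of Pdp1 was -0.0042.

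**Figure D2:**
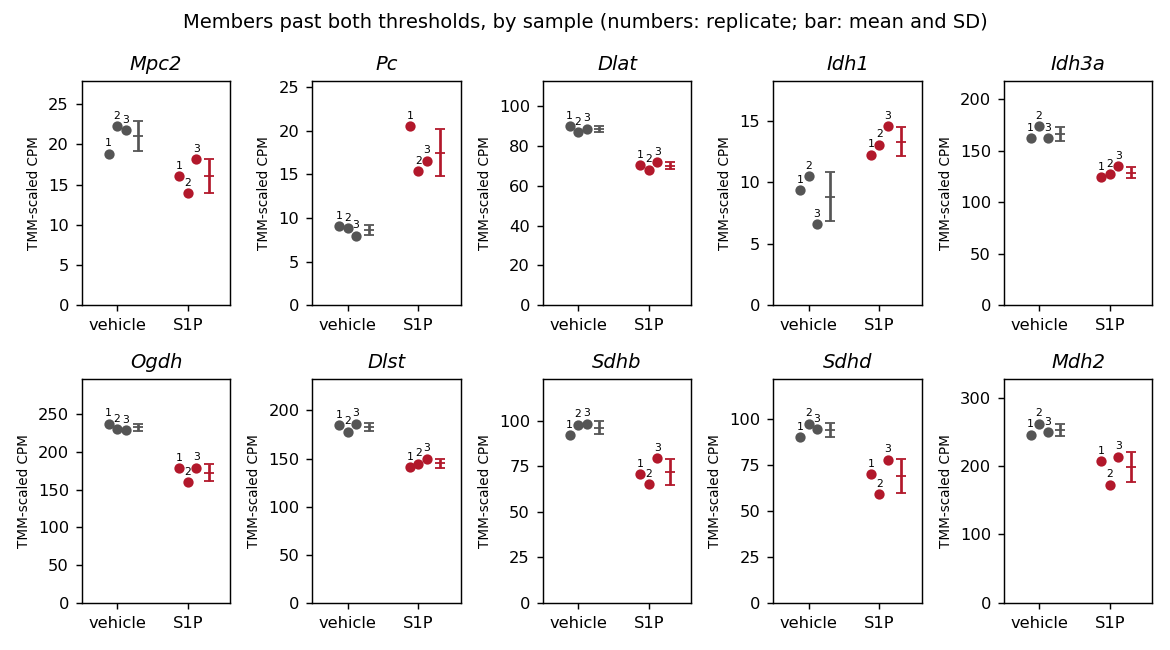
TMM-scaled CPM of the 10 members past both thresholds in each of the 6 samples, with vehicle-treated samples in grey and S1P-treated samples in red. Small numbers give the replicate and bars the mean and SD. No S1P-treated sample overlaps a vehicle-treated one in these 10 genes, which were chosen by this same comparison. Pc shows the widest separation relative to its level.

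At the citrate and isocitrate steps, the catalytic subunit of the NAD-dependent isocitrate dehydrogenase fell and the cytosolic NADP-dependent enzyme rose. Idh3a (ENSMUSG00000032279, chromosome 9 from 54493575 to 54514730) was at 162, 174 and 162 CPM in vehicle-treated and at 124, 127 and 135 CPM in S1P-treated replicates 1 to 3. The groups did not overlap, and the log2FC was -0.37 (SE 0.0665, adjusted p by edgeR = 0.00206). It shares 42.1% of its 31-base stretches with transcripts of other genes. The other subunits of the same enzyme, Idh3b and Idh3g, had log2FCs of -0.08 and -0.06 with overlapping groups (SEs 0.0939 and 0.0682). Idh3b was between -0.20 without S1P-treated replicate 2 (adjusted p by edgeR = 0.0213) and -0.017 without S1P-treated replicate 1 (adjusted p by edgeR = 0.914).

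Idh1 (ENSMUSG00000025950, chromosome 1 from 65196781 to 65225721), the cytosolic enzyme that makes NADPH from isocitrate, was at 9.40, 10.5 and 6.62 CPM in vehicle-treated and at 12.3, 13.1 and 14.6 CPM in S1P-treated replicates 1 to 3. All S1P-treated samples were higher, and vehicle-treated replicate 3 was the lowest of the 6. The log2FC was 0.59 (SE 0.16, adjusted p by edgeR = 0.0176). Without vehicle-treated replicate 3 it was 0.42 (adjusted p by edgeR = 0.0683), and without S1P-treated replicate 3 it was 0.51 (adjusted p by edgeR = 0.0784), so that the call was lost in both. Its mitochondrial counterpart Idh2 was at 38.5 ± 2.57 and 35.6 ± 1.74 CPM (SD, n = 3 each), with overlapping groups and a log2FC of -0.11 (SE 0.0828).

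Citrate synthase (Cs) was at 331, 323 and 334 CPM in vehicle-treated and 318, 277 and 312 CPM in S1P-treated replicates 1 to 3. S1P-treated replicate 2 was the lowest sample, and the log2FC of -0.12 (SE 0.0715) did not pass the test (adjusted p by edgeR = 0.227). Without that sample the log2FC of Cs was -0.0604. The cytosolic aconitase Aco1, which doubles as an iron-responsive RNA-binding protein, had a log2FC of -0.16 (adjusted p by edgeR = 0.136), with all S1P-treated samples below the vehicle-treated ones.

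Of the genes that turn 2-oxoglutarate into succinate, those encoding E1 and E2 of the 2-oxoglutarate dehydrogenase complex fell. Ogdh (ENSMUSG00000020456, chromosome 11 from 6241551 to 6309233) encodes E1 of the complex, and it was at 237, 230.5 and 229 CPM in vehicle-treated and at 178, 159.6 and 179 CPM in S1P-treated replicates 1 to 3. S1P-treated replicate 2 was the lowest, and the groups did not overlap. The level was 25.8% lower (log2FC -0.43, SE 0.0683, adjusted p by edgeR = 0.000984), the smallest adjusted p among the members that fell. Dlst (ENSMUSG00000004789, chromosome 12 from 85157027 to 85182486), the succinyltransferase E2, was at 184, 178 and 186 CPM in vehicle-treated and at 141, 145 and 149.96 CPM in S1P-treated replicates 1 to 3. Its log2FC was -0.33 (SE 0.0629, adjusted p by edgeR = 0.00264). Both calls were kept without each library in turn. Dld, the E3 that this complex shares with pyruvate dehydrogenase, is given above and did not pass.

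Succinyl-CoA synthetase, which makes GTP or ATP depending on its beta subunit, had no member past the test. The shared alpha subunit Suclg1 was at 93.4, 94.5 and 93.5 CPM in vehicle-treated and at 82.2, 84.5 and 85.8 CPM in S1P-treated replicates 1 to 3, with separate groups but an adjusted p (edgeR) of 0.0803 (log2FC -0.16), and of 0.0348 with an offset for GC content. The GTP-forming Suclg2 had a log2FC of -0.11 (SE 0.0675), with 27.7% of its 31-base stretches shared with transcripts of other genes. The ATP-forming Sucla2 had one of 0.0041 (95% interval -0.218 to 0.227). The log2FC of Sucla2 was -0.0804 without S1P-treated replicate 2, 0.119 without S1P-treated replicate 1 and -0.091 with an offset for GC content.

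Succinate dehydrogenase, which is also complex II of the respiratory chain, was the step with the lowest median log2FC, -0.34 over its 4 genes, and in each of the 4 every S1P-treated sample lay below every vehicle-treated one. Over all tested genes the median was 0.01, and 22.6% had every S1P-treated sample below every vehicle-treated one. Sdhd (ENSMUSG00000000171, chromosome 9 from 50507642 to 50515195), a membrane anchor, was at 90.3, 97.6 and 94.4 CPM in vehicle-treated and at 70.2, 59.3 and 78.0 CPM in S1P-treated replicates 1 to 3. Its log2FC was -0.44 (SE 0.0919, adjusted p by edgeR = 0.0047), and -0.35 without S1P-treated replicate 2, the lowest sample. Sdhb (ENSMUSG00000009863, chromosome 4 from 140688502 to 140709380), the iron-sulfur subunit, was at 92.4, 98.0 and 98.6 CPM in vehicle-treated and at 70.8, 65.4 and 79.5 CPM in S1P-treated replicates 1 to 3. It too was lowest in S1P-treated replicate 2, with a log2FC of -0.42 (SE 0.0796, adjusted p by edgeR = 0.00269) and -0.36 without that sample. The other anchor, Sdhc, was at 62.3, 62.0 and 63.1 CPM in vehicle-treated and at 55.1, 47.7 and 53.3 CPM in S1P-treated replicates 1 to 3. Sdhc was past the adjusted p, at a log2FC of -0.26 (SE 0.0747, adjusted p by edgeR = 0.0225), under the threshold of 0.3, and passed both without S1P-treated replicate 1. Its adjusted p by edgeR was above 0.05 without vehicle-treated replicate 1, 2 or 3 (0.0737, 0.0621 and 0.085) and without S1P-treated replicate 3 (0.0507). The flavoprotein subunit Sdha, at 268 ± 9.05 and 245.6 ± 9.77 CPM (SD, n = 3 each), had a log2FC of -0.13 (95% interval -0.269 to 0.017, adjusted p by edgeR = 0.172).

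At the last steps, Mdh2 (ENSMUSG00000019179, chromosome 5 from 135807292 to 135820882), the mitochondrial malate dehydrogenase, was at 246, 262 and 249 CPM in vehicle-treated and at 208, 173 and 214 CPM in S1P-treated replicates 1 to 3. Its log2FC was -0.35 (SE 0.0832, adjusted p by edgeR = 0.00946). Without S1P-treated replicate 2 the change was -0.26 and under the threshold, with an adjusted p (edgeR) of 0.00346. Fumarase (Fh1) was at 108, 109 and 116 CPM in vehicle-treated and at 88.2, 83.7 and 103 CPM in S1P-treated replicates 1 to 3. Fh1 was past the adjusted p, at a log2FC of -0.28 (SE 0.0826, adjusted p by edgeR = 0.0258), close to the threshold. It was past both thresholds with an offset for GC content (-0.34), with total counts only (-0.31), without a filter on low counts (-0.31) and without S1P-treated replicate 3 (-0.38). Its adjusted p was above 0.05 without vehicle-treated replicate 1, 2 or 3 (adjusted p by edgeR = 0.0649, 0.0615 and 0.112) or S1P-treated replicate 1 (0.0558). The cytosolic malate dehydrogenase Mdh1 was at 171, 188 and 179 CPM in vehicle-treated and 169.8, 133 and 173 CPM in S1P-treated replicates 1 to 3, with overlapping groups and a log2FC of -0.17 (adjusted p by edgeR = 0.192), which was -0.062 without S1P-treated replicate 2. Me2, the mitochondrial malic enzyme that turns malate back into pyruvate, was at 182, 196 and 176 CPM in vehicle-treated and at 219.6, 217 and 227 CPM in S1P-treated replicates 1 to 3. All S1P-treated samples were higher, with a log2FC of 0.26 (SE 0.0666, adjusted p by edgeR = 0.013), and it was past both thresholds without vehicle-treated replicate 2, with a change of 0.30. Its adjusted p by edgeR was above 0.05 without vehicle-treated replicate 1 (0.0684) or 3 (0.0831) and without S1P-treated replicate 3 (0.055).

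Ratios of partner genes within a sample asked whether subunits of a complex, paralogs in different compartments or competing entry routes moved by the same amount. In 6 of 10 ratios the groups did not overlap. Each of these had an exact permutation p of 0.1, two-sided, the smallest that 3 samples against 3 allow, and an adjusted p of 0.167. How often ratios of other gene pairs are separate was not counted. Of single genes tested, 22.6% had every S1P-treated sample below every vehicle-treated one, and 23.0% had every one above. The log2 ratio of Pc to Pdha1 was -4.23 ± 0.0654 in vehicle-treated and -3.46 ± 0.273 in S1P-treated samples (SD, n = 3 each), a difference of 0.77. The log2 ratio of Pdha1 to Pdhb was higher after S1P by 0.41, with values of 0.85, 0.78 and 0.78 in vehicle-treated and 1.12, 1.40 and 1.10 in S1P-treated replicates 1 to 3. The ratio of Idh3a to Idh3g was lower by 0.31 on this scale and that of Idh3a to Idh3b by 0.28, the latter with groups only 0.02 apart. The ratio of Idh1 to Idh2 was higher by 0.72, although vehicle-treated replicate 3, at -2.58, stood apart from the others at -1.91 and -1.90. The ratio of Mdh1 to Mdh2 was higher by 0.17, with SDs of 0.0268 and 0.0439. The groups overlapped for Ogdh to Dlst (-0.10), Suclg2 to Sucla2 (-0.11), Pdp1 to Pdp2 (-0.10) and Mpc1 to Mpc2 (0.47), with exact permutation p values of 0.2, 0.4, 0.3 and 0.3. Leaving out any single library kept the sign of all 10 differences. Without S1P-treated replicate 2 the difference was -0.155 for Idh3a to Idh3b, 0.29 for Mpc1 to Mpc2, -0.047 for Ogdh to Dlst and for Suclg2 to Sucla2, and -0.062 for Pdp1 to Pdp2. Without vehicle-treated replicate 1 it was -0.052 and without S1P-treated replicate 1 it was -0.20 for Suclg2 to Sucla2, and without vehicle-treated replicate 3 it was -0.046 for Pdp1 to Pdp2.

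**Figure D3:**
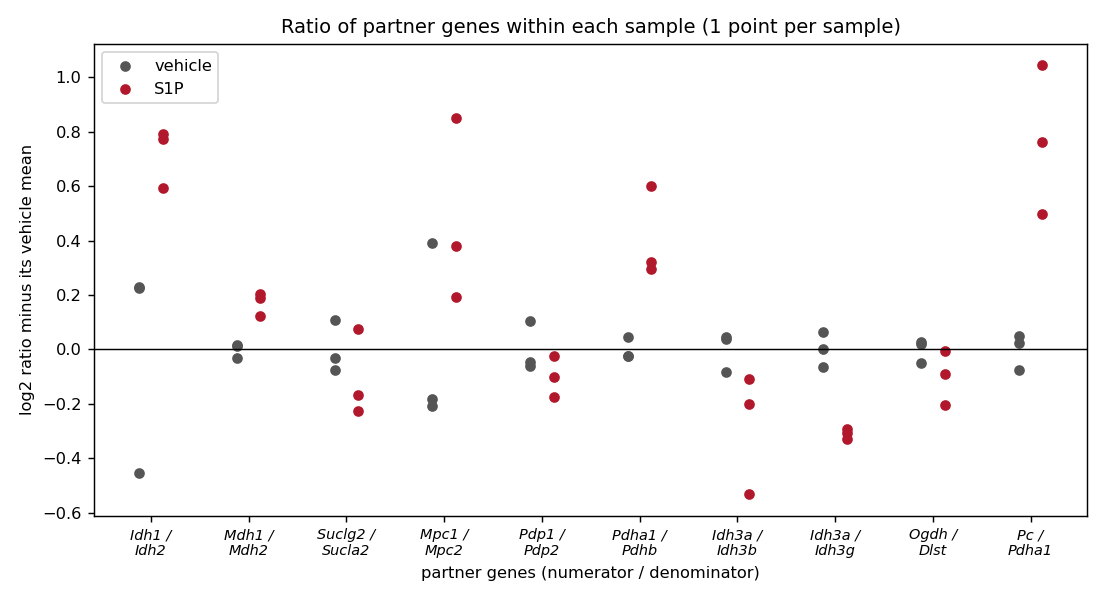
Log2 ratio of partner genes in each sample, drawn as the difference from the vehicle mean of that ratio, with 1 point per sample, vehicle-treated in grey and S1P-treated in red. Points of Pc / Pdha1 and Pdha1 / Pdhb are separate between groups, and those of Mpc1 / Mpc2 and Suclg2 / Sucla2 overlap.

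Levels of different genes were compared per length, as TPM, counts divided by the length of the canonical transcript and brought to the same total in every sample. In vehicle-treated samples Mdh2 was the highest at 427 ± 8.68 TPM, followed by Cs at 283 ± 9.83 and Sdha at 221.5 ± 2.55 (SD, n = 3 each), and the means kept that order after S1P, at 324.6 ± 53.4, 252 ± 33.9 and 196 ± 13.8 TPM, with wider spreads that overlapped for Mdh2 and Cs. Sdhd and Mdh1 came next at 189.9 ± 3.39 and 182 ± 4.96 TPM, and their values differed by little more than their spread. Pc was the lowest at 5.18 ± 0.416 TPM and moved to 10.2 ± 2.2 TPM after S1P, which left it among the 3 lowest, with Idh1 at 9.90 and Pdp1 at 9.26 TPM. Pdha1 went from rank 10 to rank 4 and Sdhd from rank 4 to rank 8. Within pyruvate dehydrogenase, the E1 genes were at 145 TPM (Pdha1) and 156.5 TPM (Pdhb), Dld at 91.6, Dlat at 33.6 and Pdhx at 15.3 TPM. With the length of all annotated exons in place of the canonical transcript, Cs came before Mdh2 in vehicle-treated samples. Sdha then moved from rank 3 to rank 5, below Mdh1 and Sdhd. Both Pdha1 at 135.5 TPM and Dld at 101.3 TPM were above Pdhb at 84.7 TPM, and Idh1 and Pc were again the lowest.

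The genes around the cycle were taken from a list of 37, of which 33 were tested, with Pdk4, Dhtkd1, Me1 and Me3 too low. In that list 6 rose (18.2%, against 12.7% of all genes) and 4 fell (12.1%, against 10.4%). The genes that rose included Pdk1, whose kinase switches pyruvate dehydrogenase off, and enzymes that link the cycle to amino acids. Pdk1 was at 134, 167 and 111 CPM in vehicle-treated and at 252, 225 and 251 CPM in S1P-treated replicates 1 to 3, a log2FC of 0.82 (SE 0.119, adjusted p by edgeR = 0.000603) that was called without each library in turn. Pck2, the mitochondrial enzyme that turns oxaloacetate into phosphoenolpyruvate, was at 40.0, 40.1 and 37.9 CPM in vehicle-treated and at 74.8, 59.9 and 70.0 CPM in S1P-treated replicates 1 to 3, with separate groups (log2FC 0.80, adjusted p by edgeR = 0.00012). Gpt2, a mitochondrial alanine transaminase, and Gls2, a glutaminase, rose by 0.83 and 1.11 on the log2 scale, Gls2 from a level of only 5.51 CPM.

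Slc25a1, the citrate carrier, rose by 0.45 on the log2 scale (adjusted p by edgeR = 0.00868) and was not called without S1P-treated replicate 3 (adjusted p by edgeR = 0.0535). Got1, the cytosolic aspartate transaminase, rose by 0.31. It lost its call without any one vehicle-treated replicate or S1P-treated replicate 3, with log2FCs from 0.21 to 0.33 and adjusted p values by edgeR from 0.0546 to 0.085, and also with total counts only and with no filter on low counts. The carriers Slc25a10 (dicarboxylates), Slc25a3 (phosphate) and Slc25a13 (aspartate and glutamate) fell by 0.58, 0.37 and 0.33 on the log2 scale. The call of Slc25a10 was lost without vehicle-treated replicate 1 (-0.57) or S1P-treated replicate 3 (-0.52), and that of Slc25a3 without S1P-treated replicate 2 (-0.28). Slc25a13 kept its call without vehicle-treated replicate 3 or S1P-treated replicate 3 and lost it without each of the other 4 libraries, with log2FCs from -0.34 to -0.27. The 4 assembly factors of succinate dehydrogenase, Sdhaf1 to Sdhaf4, did not pass, with log2FCs from -0.22 to -0.0023.

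**Figure D4:**
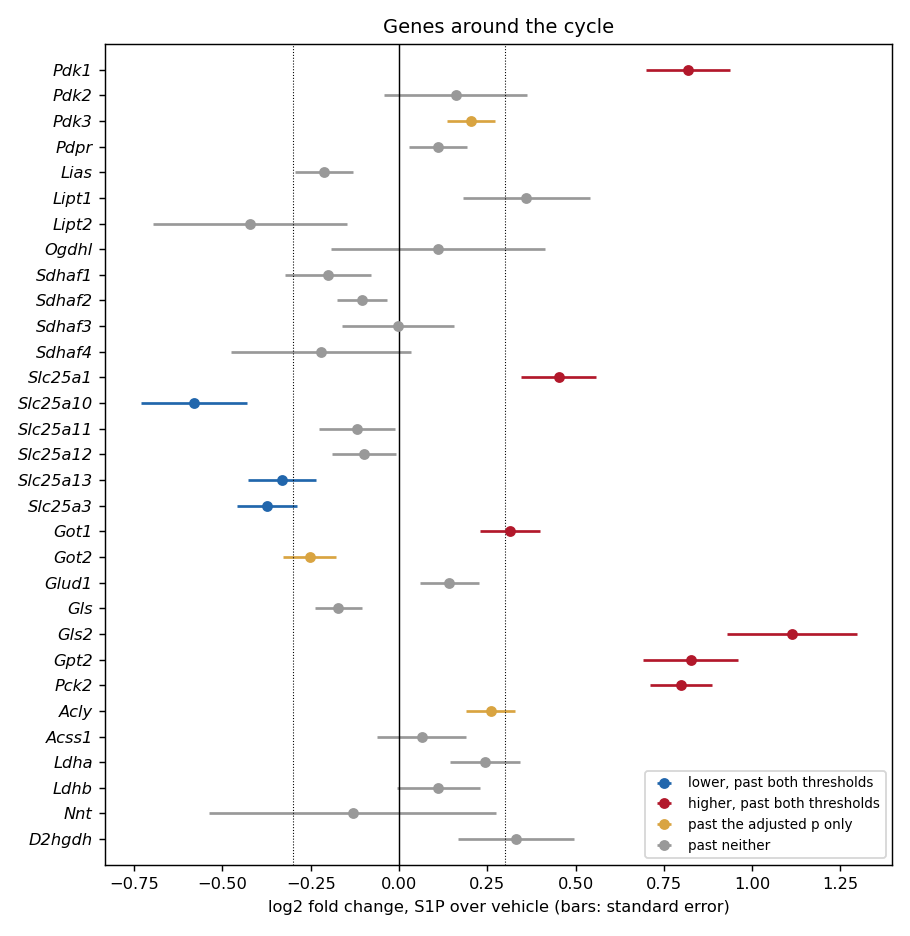
Log2FC of 31 of the tested genes around the cycle, S1P over vehicle, with the SE as bars and dotted lines at a size of 0.3. Gls2, Gpt2, Pdk1 and Pck2 lie farthest to the right among the called genes, and Slc25a10 farthest to the left.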

How the data were processed

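The libraries were strand-specific and poly(A)-selected. The submitters' processing notes name Trim Galore, STAR, featureCounts, DESeq2 and the build GRCm39. The deposited values are raw counts per gene made by the authors, and versions, the strand setting and the handling of reads with several matches are not given in the sources used here. Symbols, positions and lengths came from GENCODE vM39, which holds 56323 of the 56941 identifiers, and upstream sequence came from the GRCm39 genome. Genes were filtered with filterByExpr, scaled by TMM and tested with the quasi-likelihood test of edgeR 4.0.16 (R 4.3.3, limma 3.58.1), fitting treatment alone and adjusting p by Benjamini-Hochberg across 13299 genes, where the authors used DESeq2. Ratios used a prior count of 2. All 30 members are described, with every sample's value for those past both thresholds or whose call depends on a setting, and genes around the cycle are named when past both thresholds, with the Sdhaf genes and Nnt added after their values were seen. Some genes of these lists, which stay in the counts, are not reported here. Members and lists were chosen with earlier results of these data known. The fits were tested on simulated data. Sharing of 31-base stretches was counted on either strand. P-values measure the spread between samples labelled as biological replicates, and whether these came from separate mice is not stated. The alternatives were DESeq2 1.42.0, limma-voom, other scalings, filters and thresholds, an offset for GC content (lowess, span 0.3), the replicate number as a block, and each library left out.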

Additional observations from a re-analysis of the deposited data

How the results depend on the processing

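With DESeq2, limma-voom, RLE or upper-quartile factors, mitochondrially encoded genes left out, or a mean of at least 50 counts, 8 members were lower and 2 higher, as reported. Across all tested genes these settings gave 1190 to 1429 lower and 1497 to 1838 higher, against 1384 and 1687 in the main fit. Both minima came with the mean of at least 50 counts, where 10185 genes were tested. Total counts only, no filter on low counts, and the offset for GC content alone or with the block gave 9 lower and 2 higher. Fh1 was the added member. Across all tested genes these settings gave 1378 to 1608 lower and 1498 to 1727 higher. Both maxima came without the filter, where 34414 genes were tested. The median log2FC of all genes was 0.16 without the filter and 0.01 with it. With no fold threshold, 10 members were lower and 4 higher, where 13.8% and 14.7% of all tested genes were. With a fold threshold of 0.5, 0 members were lower and 2 higher, 541 genes of all tested were lower and 1060 higher, and 1 gene around the cycle was lower. Leaving out each library in turn gave 6 to 9 lower and 1 to 3 higher members, with 6 lower without S1P-treated replicate 2 and 1 higher when the third replicate of either group was left out, and 1 to 4 lower and 4 to 8 higher genes around the cycle, with 1 lower when vehicle-treated replicate 1 was left out and 2 lower for S1P-treated replicate 2. Over all genes these fits gave 961 to 1492 lower and 1158 to 1736 higher. Of the 8 lower members, 6 kept the call in every fit at these thresholds, the exceptions being Mpc2 and Mdh2. The replicate number as a block left 8 members lower and 2 higher, and 1423 genes lower and 1697 higher in all, and it changed no call of a member. Same-numbered samples of the groups correlated at 0.12, -0.00598 and 0.0483 in their deviations from the group means, so the numbers were not taken as pairs, and not every sample correlated best with its own number. The cause of the changes between settings was not tested. The SEs of log2FC were 0.133 for Pc and 0.16 for Idh1, and their median over the members was 0.0787.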

Other observations

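Nnt, which encodes the proton-driven transhydrogenase that makes mitochondrial NADPH, was near the limit of testing, at 0.922, 0.513 and 1.54 CPM in vehicle-treated and 0.675, 1.05 and 1.10 CPM in S1P-treated replicates 1 to 3.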
